A study of Mus musculus with 4 samples.

Results

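The genes Cyp2b9, Cyp2b10, Cyp2b13, Cyp3a11, Cyp3a13, Cyp3a16, Cyp3a25 and Cyp3a44 encode cytochrome P450 enzymes of the subfamilies 2B and 3A, which the liver uses to oxidise drugs, steroids and other foreign compounds. They were taken as the 8 listed symbols, and every probe set that the array annotation ties to one of them and to no other gene was used. This gave 10 probe sets of 45037, 3 for Cyp2b10 and 1 for each of the other genes, and 8 of the 18193 genes with a probe set of their own. Livers of Baf60a LKO mice, which lack Baf60a in the liver, were compared with livers of wild-type (WT) mice on Affymetrix expression arrays. All mice were on a C57BL/6 background, had a high-fat diet for 10 weeks from 6 weeks of age and were fasted overnight before the livers were taken. Each genotype had 2 arrays, and each array carried an independent pool of liver RNA. The number and sex of the mice in a pool, the Cre driver and any floxed allele in the WT mice are not given in the sources used here. No inducing drug is named in the labels, so the values describe these genes without a stated inducer.

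Cyp2b and Cyp3a genes are known as targets of 2 nuclear receptors, CAR (encoded by Nr1i3) and PXR (encoded by Nr1i2). Both receptors bind DNA together with RXR at repeats of a short core motif, many of them in enhancers well upstream of the start of transcription, and raise transcription of these genes when foreign compounds, bile acids or steroids reach the hepatocyte. Cyp2b10 is the classical reporter of CAR and Cyp3a11 that of PXR in mouse liver, while Cyp2b9, Cyp2b13, Cyp3a16 and Cyp3a44 are known for higher levels in female than in male adult liver.

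The 250 bases before and 50 bases after the start of transcription are shown for 5 of the genes, as RefSeq gives them for GRCm38.p6. These are the 3 Cyp2b genes, all of which read higher in WT replicate 1 than in WT replicate 2. The others are a pair of Cyp3a genes with high signal, of which Cyp3a11 lay lower in Baf60a LKO livers and Cyp3a25 did not. Cyp2b9 (chr7:26173159-26173458), Cyp2b13 (chr7:26061245-26061544) and Cyp2b10 (chr7:25897408-25897707) lie on the plus strand. Cyp3a11 (chr5:145879805-145880104) and Cyp3a25 (chr5:146009569-146009868) lie on the minus strand. Capitals mark the receptor core motifs AGGTCA and AGTTCA and the letters TATAA on either strand, the letters ATAAAA on either strand in the Cyp2b genes, and CAAAGTCCA, a form of the site of the hepatocyte factor HNF4A, in the Cyp3a genes.
Cyp2b9: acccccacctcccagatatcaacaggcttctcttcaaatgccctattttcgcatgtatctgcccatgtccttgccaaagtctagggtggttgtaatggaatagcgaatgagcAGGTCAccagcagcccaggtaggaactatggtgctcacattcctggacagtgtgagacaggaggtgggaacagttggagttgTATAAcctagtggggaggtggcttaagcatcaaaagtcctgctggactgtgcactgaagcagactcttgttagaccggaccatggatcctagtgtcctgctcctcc
Cyp2b13: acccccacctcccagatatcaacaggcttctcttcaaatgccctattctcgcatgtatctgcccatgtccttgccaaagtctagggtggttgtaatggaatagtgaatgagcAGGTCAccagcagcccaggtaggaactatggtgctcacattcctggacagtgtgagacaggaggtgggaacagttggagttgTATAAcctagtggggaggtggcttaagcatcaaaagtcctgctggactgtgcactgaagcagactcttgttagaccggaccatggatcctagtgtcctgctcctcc
Cyp2b10: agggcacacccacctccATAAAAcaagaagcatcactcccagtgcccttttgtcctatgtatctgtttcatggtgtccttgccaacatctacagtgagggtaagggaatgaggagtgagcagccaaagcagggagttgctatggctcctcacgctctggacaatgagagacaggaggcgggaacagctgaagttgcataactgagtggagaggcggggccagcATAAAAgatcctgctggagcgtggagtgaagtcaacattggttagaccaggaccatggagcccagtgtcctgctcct
Cyp3a11: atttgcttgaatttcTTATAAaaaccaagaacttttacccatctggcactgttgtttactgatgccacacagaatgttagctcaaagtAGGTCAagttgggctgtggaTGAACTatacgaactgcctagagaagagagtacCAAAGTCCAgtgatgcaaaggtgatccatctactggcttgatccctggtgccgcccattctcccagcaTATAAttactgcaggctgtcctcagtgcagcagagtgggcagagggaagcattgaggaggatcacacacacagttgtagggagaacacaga
Cyp3a25: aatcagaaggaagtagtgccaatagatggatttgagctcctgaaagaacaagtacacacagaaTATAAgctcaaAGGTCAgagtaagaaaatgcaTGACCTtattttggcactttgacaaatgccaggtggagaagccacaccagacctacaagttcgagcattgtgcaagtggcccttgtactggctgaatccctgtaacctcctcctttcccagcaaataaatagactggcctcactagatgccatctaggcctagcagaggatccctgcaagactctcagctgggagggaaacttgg

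The promoters of Cyp2b9 and Cyp2b13 differed at 2 of 300 positions, T48C and C104T, counted from the 5′ end of the printed sequence, with the base of Cyp2b9 first. Each was 72.9% identical to Cyp2b10 over an alignment of 314 columns. Among the Cyp3a genes, Cyp3a16 and Cyp3a44 were 93.4% identical, Cyp3a11 was 75.2% identical to Cyp3a16, and Cyp3a11 and Cyp3a25 were 55.7% identical. All 8 genes had an entry in the RefSeq promoter table, which holds 32851 entries of this length, and motifs were searched on both strands. AGGTCA was found in 5 of the 8 promoters, against 16.3% of all entries, and AGTTCA in 1, Cyp3a11, against 14% of all entries. Cyp2b9 and Cyp2b13 held AGGTCA 138 bases before the start, Cyp3a11 162 bases before it, and Cyp3a25 on opposite strands 176 and 155 bases before it, while Cyp2b10 held neither motif. A direct repeat of any pairing of these motifs with 4 bases between them, a form that CAR and PXR are known to bind, was in none of the 8 and in 0.0274% of entries. The repeat with 3 bases between was in none of the 8 and in 0.0122% of entries. Other spacings and orientations of the repeats were not searched. CAAAGTCCA was found in Cyp3a11 and Cyp3a16, 109 and 99 bases before the start, and in 0.475% of entries. Cyp2b10 held ATAAAA 233 and 27 bases before its start, Cyp2b9 and Cyp2b13 held TATAA 56 bases before theirs and no ATAAAA, and 18.5% of entries held ATAAAA. The form TTCNNNGAA, bound by STAT5, was in none of the 8 and in 8.3% of entries. CCAAT was found in 3 of the 8 and in 37.4% of entries, and TATAA in 6 and in 24.9%. A missing match says only that these letters are not in the window.

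Before the results, some facts of the arrays bear on them. The deposited log2 values had medians of 4.19 to 4.27 over the arrays, and the 27 probe sets for Bacillus transcripts had 95th percentiles of 2.63 to 2.87, used here as a gauge of background. Over all probe sets, the difference between the pools of a genotype had a standard deviation of 0.21 in Baf60a LKO and 0.33 in WT on the log2 scale. The 3-prime Cre control probe sets read 5.72 and 5.80, and 5.88 and 6.22, in Baf60a LKO, against 3.91 and 3.45, and 2.80 and 2.48, in WT. Smarcd1, which encodes BAF60a, read 5.34 and 5.30 in Baf60a LKO and 5.62 and 5.88 in WT on its brighter probe set, which did not pass (limma, adjusted p = 0.564). Its place relative to the deletion is unknown here. Of 7 cell type lists, 35 of 38 markers were measured. By limma over genes 0 of the 35 passed, beside 0.484% of all genes, so this count does not show an unchanged cell makeup. At an unadjusted p under 0.05 there were 2, both of cholangiocytes, beside 8.17% of all probe sets. The 7 hepatocyte markers differed by -0.34 to 0.21, and the 4 cholangiocyte markers were all higher in Baf60a LKO, with a median difference of 0.42 and mean levels of 4.51 and 4.90 in Baf60a LKO and 4.02 and 4.20 in WT. The part of cholangiocytes in the results below was not tested. In bulk liver, fewer cells that express a gene and less RNA per cell cannot be told apart.

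None of the 10 probe sets passed the test between genotypes, though Cyp2b9 and Cyp3a11 lay lower in both Baf60a LKO pools than in both WT pools. The test was limma over all 45037 probe sets, its p-values adjusted after Benjamini and Hochberg, and 0.05 was the limit for an adjusted p. By it 0 of 10 member probe sets passed, beside 0.187% of all probe sets (84, of which 30 were higher and 54 lower). At an unadjusted p under 0.05 there were 3 of 10, of Cyp2b9, Cyp3a11 and Cyp2b10, beside 8.17% of all probe sets. In 5 of 10 both Baf60a LKO arrays lay below both WT arrays, beside 19.4% of all probe sets. In 1 they lay above, beside 19.7%, and 4 overlapped. Of the 5, only Cyp2b9 and Cyp3a11 were above the control probe sets' 95th percentile on all arrays. The others were Cyp3a44, at background throughout, and a pair of Cyp2b10 probe sets with both Baf60a LKO arrays under that percentile. The median difference over the 10 was -0.41, against -0.0069 over all probe sets. With WT replicate 1 left out this median was -0.13, and with WT replicate 2 left out it was -0.62. Taking each gene once, by its brightest probe set, it was -0.20, a value set by Cyp3a16 and Cyp3a44. With a pair of Cyp2b10 probe sets at the bounds given for them it was -0.27. Cyp3a16 and Cyp3a44 lay at background on all arrays, so these medians rest in part on background values. Near-identical members of these families can share probe sequence, so the values of single genes are uncertain.

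**Figure D1:**
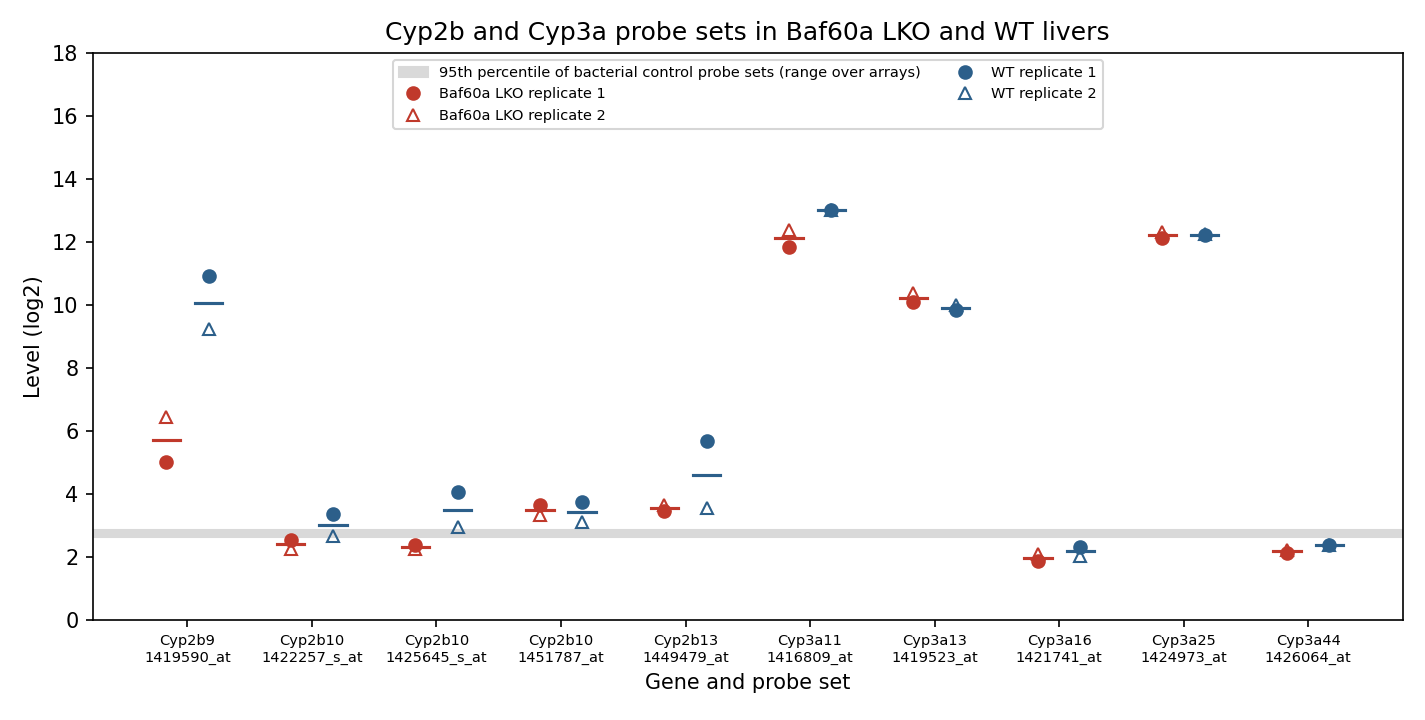
Level on the log2 scale of each probe set in each array, with Baf60a LKO left of WT, replicate 1 as filled circles, replicate 2 as open triangles and bars at the mean of 2 arrays. The grey band spans the 95th percentiles of the bacterial control probe sets over the 4 arrays (2.63 to 2.87). Cyp2b9 shows the widest step between genotypes, Cyp2b13 the widest gap between WT pools, and Cyp3a16 and Cyp3a44 lie under the band.

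Cyp2b9 lay far lower in Baf60a LKO livers. Its probe set read 4.997 and 6.45 in Baf60a LKO, against 10.91 and 9.22 in WT. The groups were 2.78 apart at their nearest arrays, more than the 1.45 between the Baf60a LKO pools and the 1.68 between the WT pools. The difference was -4.34 ± 0.67 on the log2 scale (SE, 2 arrays per group), or 20.3-fold lower on average, with a 95% interval of -5.99 to -2.69. Only 7 of all probe sets lay further below WT, and 76 of the 84 probe sets that passed had a smaller difference in size. With the spread between its own pools, Cyp2b9 had adjusted p = 0.171 by limma and did not pass. It passed in 1 of 13 other settings, with array medians subtracted (difference -4.31, limma adjusted p = 0.0415), and the adjusted p ran from 0.0415 to 1.00 over those settings. With 1 array left out the difference was -5.18 to -3.50, lower in each case.

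Cyp2b13 varied between the WT pools more than between the genotypes. It read 3.44 and 3.65 in Baf60a LKO and 5.67 and 3.55 in WT. WT replicate 1 was thus the only high array, and WT replicate 2 lay between the Baf60a LKO pools. The difference of -1.06 ± 0.64 did not pass (limma, adjusted p = 0.670), and it stood at -0.0019 with WT replicate 1 left out and at -2.12 with WT replicate 2 left out. Between the WT pools Cyp2b13 differed by 2.12, or 4.35-fold, the widest gap of any of the 18193 genes in either direction, just ahead of Ppp1r3g at -2.12.

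Cyp2b10, the usual reporter of CAR, was dim in all 4 pools on each of its 3 probe sets, which did not move alike. Probe set 1425645_s_at read 2.38 and 2.25 in Baf60a LKO and 4.05 and 2.94 in WT. Probe set 1422257_s_at read 2.55 and 2.25 in Baf60a LKO and 3.36 and 2.67 in WT. On both, the Baf60a LKO pools lay under the control probe sets' 95th percentile and the WT pools above it, so only a bound is given, set after the data were seen, with each Baf60a LKO array taken at that percentile. By it 1425645_s_at averaged at least 1.77-fold lower in Baf60a LKO, with measured means of 2.32 in Baf60a LKO and 3.49 in WT (limma, adjusted p = 0.528), and at least 1.20-fold lower with WT replicate 1 left out. The bound for 1422257_s_at was at least 1.27-fold lower, with means of 2.40 in Baf60a LKO and 3.02 in WT (limma, adjusted p = 0.615), and no fold was left without WT replicate 1. Probe set 1451787_at overlapped, with 3.65 and 3.34 in Baf60a LKO and 3.74 and 3.12 in WT, with a mean difference of 0.06 ± 0.24 (limma, adjusted p = 0.955). Its sign turned when Baf60a LKO replicate 1 was left out (-0.09), when WT replicate 2 was (-0.25) and when the 3 probe sets were averaged (-0.58). The ending _s_at marks probe sets that can match more than 1 transcript. No level of Cyp2b10 reached the array median in any pool.

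**Figure D2:**
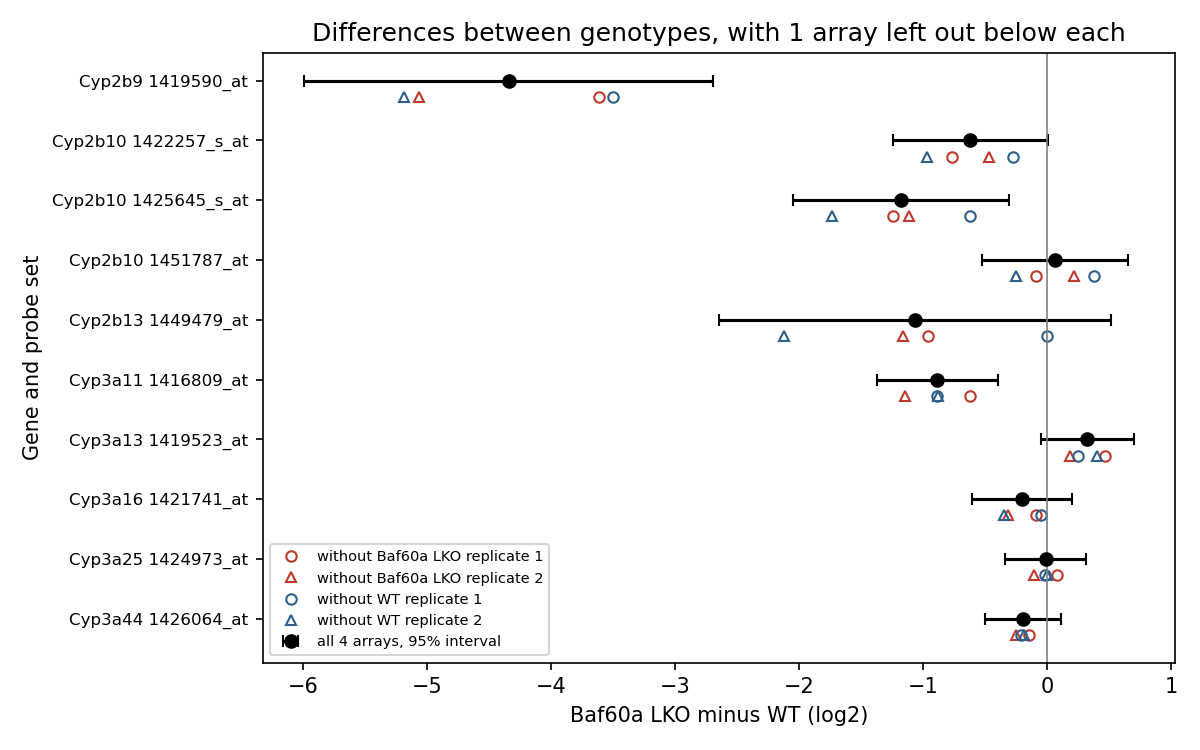
Difference between genotypes (Baf60a LKO minus WT, log2) for each probe set, as black points with 95% intervals from limma, and below each point the difference with 1 array left out, all from measured values, also where these lie at background. Cyp2b9 stays between -5.18 and -3.50 with any array left out, and Cyp2b13 moves to -0.0019 without WT replicate 1.

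Among the Cyp3a genes, Cyp3a11 lay lower, Cyp3a25 differed little and Cyp3a13 was slightly higher in Baf60a LKO livers. Cyp3a11, the main PXR-inducible CYP3A gene of mouse liver, read 11.85 and 12.38 in Baf60a LKO, against 13 in both WT arrays. The WT pools differed by 0.0062, the Baf60a LKO pools by 0.53, and the groups did not overlap. The difference was -0.88 ± 0.20, or 1.85-fold lower, with a 95% interval of -1.37 to -0.40, and did not pass (limma, adjusted p = 0.360, and 0.107 to 1.00 over 13 other settings). Leaving out Baf60a LKO replicate 1 gave -0.62 and leaving out Baf60a LKO replicate 2 gave -1.15.

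Cyp3a25 read 12.13 and 12.32 in Baf60a LKO and 12.22 and 12.24 in WT, so the WT pools lay between the Baf60a LKO pools. The difference was -0.0092 ± 0.13, with a 95% interval of -0.33 to 0.32 (limma, adjusted p = 0.994), and its sign turned with array medians subtracted (0.023). Cyp3a13, which lies apart from the other Cyp3a genes on chromosome 5, read 10.1 and 10.37 in Baf60a LKO and 9.83 and 9.98 in WT, a difference of 0.33 ± 0.15 (limma, adjusted p = 0.634). Both Baf60a LKO pools lay above both WT pools for Cyp3a13, by 0.11 at the nearest arrays.

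Cyp3a16 and Cyp3a44 lay at background in all 4 pools. Cyp3a16 read 1.86 and 2.09 in Baf60a LKO and 2.33 and 2.03 in WT, and Cyp3a44 read 2.12 and 2.23 in Baf60a LKO and 2.36 and 2.39 in WT. Neither reached the 95th percentile of the control probe sets in any array, so no fold is given, and both missed the threshold (limma, adjusted p = 0.736 and 0.680). A further probe set, 1419704_at, is tied to several Cyp3a symbols and was therefore not counted with any gene. It read 1.51 and 2.35 in Baf60a LKO and 3.01 and 3.08 in WT, so that the Baf60a LKO pools lay under the 95th percentile of the control probe sets and the WT pools above it, and it did not pass (limma, adjusted p = 0.436, unadjusted p = 0.00736). Cyp2b19, a Cyp2b gene known from skin and the only further gene of these subfamilies with a probe set of its own, read 2.78 and 2.44 in Baf60a LKO and 2.997 and 2.72 in WT (limma over genes, adjusted p = 0.645).

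The Cyp2b genes split the WT pools, and the Cyp3a genes with high signal did not. WT replicate 1 was above WT replicate 2 on all Cyp2b probe sets, by 0.63 to 1.12 for Cyp2b10, 1.68 for Cyp2b9 and 2.12 for Cyp2b13. Of all probe sets, 0.258% had a gap between WT pools at least as wide as the widest of Cyp2b10, 0.0289% as wide as Cyp2b9 and 0.00444% as wide as Cyp2b13. For the other Cyp2b10 probe sets the shares were larger, 3.89% for 1422257_s_at and 6.03% for 1451787_at. Cyp3a11, Cyp3a13 and Cyp3a25 differed by 0.0062, 0.15 and 0.02 between the WT pools, with WT replicate 2 the higher one. The median gap in size between WT pools was 0.46 over the 10 probe sets and 0.20 over all probe sets. Between the Baf60a LKO pools, where the median was 0.25 over the 10 and 0.12 over all, Cyp2b9 turned the other way, with replicate 1 lower by 1.45. A gap that wide was found in 0.0266% of all probe sets.

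Genes whose 4-array profiles were most like those of Cyp2b9 and Cyp2b13 were sought among all genes, since these were the members that spanned 2 or more on the log2 scale (5.91 and 2.23). Likeness was the Euclidean distance between profiles after each had its own mean subtracted, over 4 arrays. For Cyp2b9 the nearest were 9030619P08Rik (distance 0.82), Serpina12 (1.32), the gene of the adipokine vaspin, and Cyp2c50 (1.43), a P450 of another subfamily. 9030619P08Rik read 3.92 and 4.59 in Baf60a LKO and 8.72 and 7.72 in WT. Like the other genes named here it was picked for likeness, so its likeness to Cyp2b9 is no separate result. It shared with Cyp2b9 the higher WT replicate 1 and the higher Baf60a LKO replicate 2. For Cyp2b13 the nearest were Hao2 (0.34), a hydroxyacid oxidase gene, Moxd1 (0.43), a monooxygenase gene, and Gm6958 (0.67). Hao2 read 4.24 and 4.29 in Baf60a LKO and 6.09 and 4.39 in WT, and Moxd1 read 3.13 and 3.54 in Baf60a LKO and 4.97 and 3.07 in WT. Ranked by how far WT replicate 1 stood above WT replicate 2, Cyp2b13 was first of all genes, Moxd1 second (1.90), Hao2 the fourth (1.69) and Cyp2b9 the fifth.

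**Figure D3:**
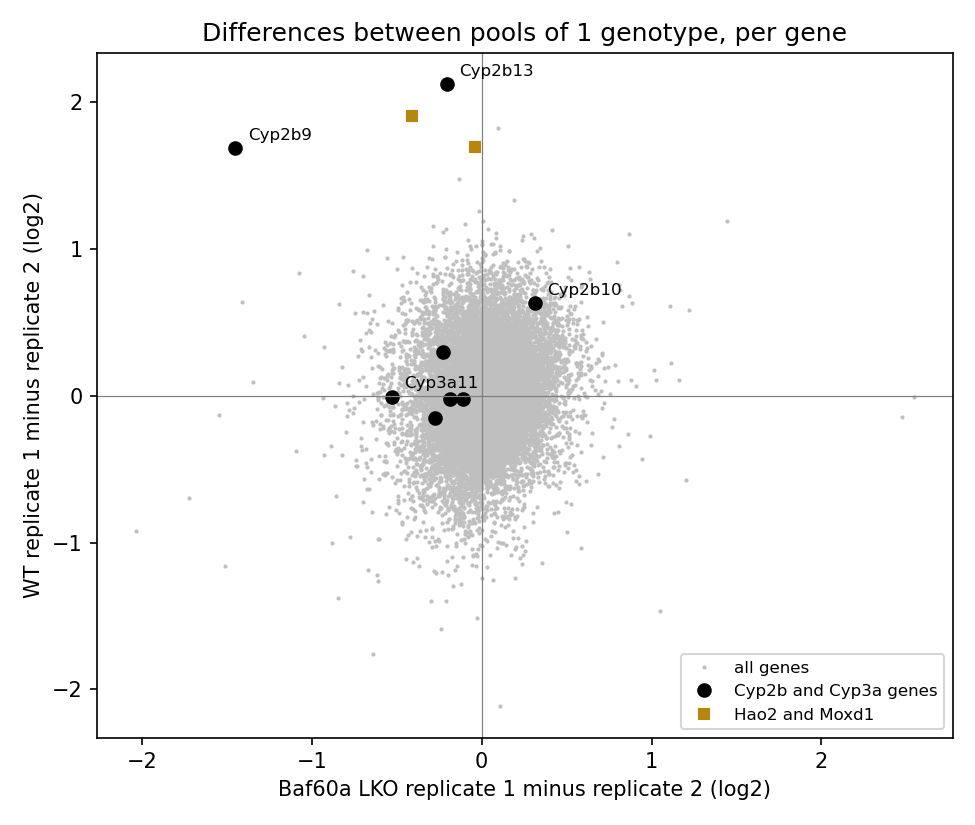
Difference between replicate 1 and replicate 2 within each genotype on the log2 scale, WT on the vertical and Baf60a LKO on the horizontal axis, with 1 point per gene and the members in black. Cyp2b13 stands highest at 2.12, Cyp2b9 lies at 1.68 in WT and -1.45 in Baf60a LKO, and Hao2 and Moxd1 (squares) lie near Cyp2b13.

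Because Cyp2b9, Cyp2b13 and Hao2 are known as female-biased, transcripts of the sex chromosomes were read in each pool, chosen after these values were seen. Xist, the RNA of the inactive X chromosome, was below the median of every array on its 3 probe sets. Its brightest probe set read 3.55 and 3.46 in Baf60a LKO and 3.74 and 3.29 in WT, another read 2.53 and 2.29 in Baf60a LKO and 2.75 and 2.14 in WT, and the dimmest 2.23 and 2.27 in Baf60a LKO and 2.32 and 2.41 in WT. WT replicate 1 was thus the highest array on 2 of the 3. Only the brightest lay above the control probe sets' 95th percentile, so the order of the arrays on the others is one of background values. Eif2s3y, a gene of the Y chromosome, read 7.93 and 8.22 in Baf60a LKO and 7.49 and 8.07 in WT on its brighter probe set (limma, adjusted p = 0.720), with WT replicate 1 the lowest array. Kdm5d, also of the Y chromosome, read 5.91 and 6.01 in Baf60a LKO and 6.13 and 6.01 in WT on its brightest probe set, with WT replicate 1 the highest array. Uty, a further Y-linked gene, read 4.87 and 4.61 in Baf60a LKO and 4.33 and 4.22 in WT on 1 of its 4 probe sets. The sex makeup of the pools and its part in the Cyp2b values were not tested. Of the other female-biased liver genes, 11 of 18 listed were measured, 0 passed by limma (3 at an unadjusted p under 0.05) and their median difference was 0.22, with 8 higher and 3 lower, Hao2 the lowest (-0.97 ± 0.52). Among them Fmo2, a flavin monooxygenase gene, differed by 0.53 ± 0.27 and Acot3, a thioesterase gene, by 0.35 ± 0.12, while Sult1e1, the oestrogen sulfotransferase, and Sult3a1 lay at 2.24 to 2.77 in all arrays. Of 15 male-biased genes 4 fell, 0 rose and 11 did not pass by limma, with 9 of 15 at an unadjusted p under 0.05 (in both directions). The median difference of these 15 was -0.06, with 9 lower and 6 higher and a range of -6.33 to 1.26, so the list did not fall as a whole. Hsd3b5 and Serpina12 fell by 6.33 and 4.60 on the log2 scale, and Cyp7b1 and Cyp4a12a by 2.19 and 1.54. The other male-biased genes Elovl3 (-1.14 ± 0.20), Slco1a1 (-0.98 ± 0.18), Cyp2d9 (0.14 ± 0.12) and Ugt2b38 (0.60 ± 0.57) missed the threshold. The 11 genes of growth hormone signalling, which sets sex bias in liver, had a lower mean in 11 of 11 (10 with array medians subtracted), with a median of -0.19 and 0 past the threshold by limma (2 at an unadjusted p under 0.05). Stat5b differed by -0.07 ± 0.13, Stat5a by -0.35 ± 0.14, Ghr by -0.07 ± 0.12 and Jak2 by -0.10 ± 0.13. For the lists, genes were tested by limma over 18193 genes, of which 0.484% passed (0.236% higher and 0.247% lower). Of all genes 49.9% were lower on average, and the median difference was 0. At an unadjusted limma p under 0.05 the share was 8.17% over all probe sets, and it was not counted over genes.

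Of the receptors, CAR was far lower in Baf60a LKO livers and PXR differed little. Nr1i3 read 6.33 and 6.58 in Baf60a LKO and 11.21 and 11.26 in WT, a fall of 27.3-fold (log2 difference -4.77 ± 0.14, limma adjusted p = 0.000591). Nr1i2 read 7.38 and 7.46 in Baf60a LKO and 7.504 and 7.55 in WT, a difference of -0.11 ± 0.12 (limma, adjusted p = 0.752). Rxra and Rxrb, the genes of their partner RXR, differed by -0.29 ± 0.12 and -0.16 ± 0.12, and Hnf4a by -0.19 ± 0.11. Of 13 measured receptors and co-regulators, Nr1i3 was the 1 that fell, 12 did not pass and the median was 0.07 (-0.011 after cyclic loess).

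Of 26 other measured targets of CAR and PXR, 22 had a lower mean in Baf60a LKO livers (19 with array medians subtracted), and the median difference was -0.49. Of these 26, 5 fell, 0 rose and 21 did not pass by limma, with 13 of 26 at an unadjusted p under 0.05. Over all genes 49.9% had a lower mean and 0.484% passed. At an unadjusted p under 0.05 the share was 8.17% over all probe sets and was not counted over genes. The drug-metabolising genes Cyp2c50, Cyp2c54 and Cyp2c37 fell by 3.79, 3.68 and 3.66 on the log2 scale, the transporter gene Slco1a4 by 3.75 and the exporter gene Abcc3 by 1.02. Cyp2c29 read 8.04 and 9.58 in Baf60a LKO and 11.54 and 11.67 in WT, a difference of -2.79 ± 0.48 that did not pass (limma, adjusted p = 0.138). Cyp2c55 (-0.76 ± 0.21), Cyp2c65 (-0.12 ± 0.15) and Aldh1a1 (-0.02 ± 0.12) did not pass either. Genes that supply P450 enzymes with electrons and haem had a median of 0.02 (-0.025 after cyclic loess), and 0 of 14 passed by limma (5 at an unadjusted p under 0.05). Among them Cyb5a differed by -0.0026 ± 0.12, Cyb5b by -0.12 ± 0.13, Cyb5r3 by 0.06 ± 0.13 and Pgrmc1 by -0.08 ± 0.12. Alas1, which starts haem synthesis and was picked with its values known, differed by -0.44 ± 0.11.

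Beyond the 8 listed genes, 65 other P450 genes were measured, of which 46 were lower, beside 49.9% of all genes, with a median of -0.19. By limma 22 of the 65 had an unadjusted p under 0.05, beside 8.17% of all probe sets, a share not counted over genes. Past the threshold, which 0.484% of all genes passed, 0 of the 65 rose and 7 fell. Besides the 3 Cyp2c genes these were Cyp7b1, Cyp4a12a, Cyp4a14 and Cyp2f2, and on the log2 scale Cyp4a14 fell by 2.07 and Cyp2f2 fell by 1.82. The largest differences that did not pass were those of Cyp2c29, Cyp2c38 (-1.26 ± 0.27), Cyp2d22 (-0.99 ± 0.13) and Cyp46a1 (-0.95 ± 0.18). By subfamily, 11 of 11 Cyp2c genes were lower, against 3 of 4 Cyp2b genes and 4 of 5 Cyp3a genes. The medians were -0.76 for Cyp2c, -0.65 for Cyp2b and -0.20 for Cyp3a. That of Cyp3a is the value of Cyp3a44, which like Cyp3a16 lay at background on all arrays. It therefore does not measure a fall of the Cyp3a subfamily, and the dim Cyp2b19 has a part in the Cyp2b median. The Cyp2b median rested on WT replicate 1, through Cyp2b13: it was -0.053 with that array left out and -1.25 with WT replicate 2 left out. The Cyp3a median was -0.088 with Baf60a LKO replicate 1 left out and -0.052 with WT replicate 1 left out, and the Cyp2c median kept between -0.97 and -0.76, with 9 of 11 lower when WT replicate 1 was left out. The Cyp2c count was 11 of 11 under the 3 other normalizations too, whereas Cyp2b10 (by its brightest probe set) and Cyp3a25 lay so near 0 that their signs turned between settings. Over the lists and the other P450 genes together, 12 of 144 genes passed. With 1 array left out fewer degrees of freedom remain, and of these 12 genes 5 passed when Baf60a LKO replicate 1 was dropped, 7 when Baf60a LKO replicate 2 was, 0 when WT replicate 1 was and 1 when WT replicate 2 was. All 12 kept a negative difference each time.

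**Figure D4:**
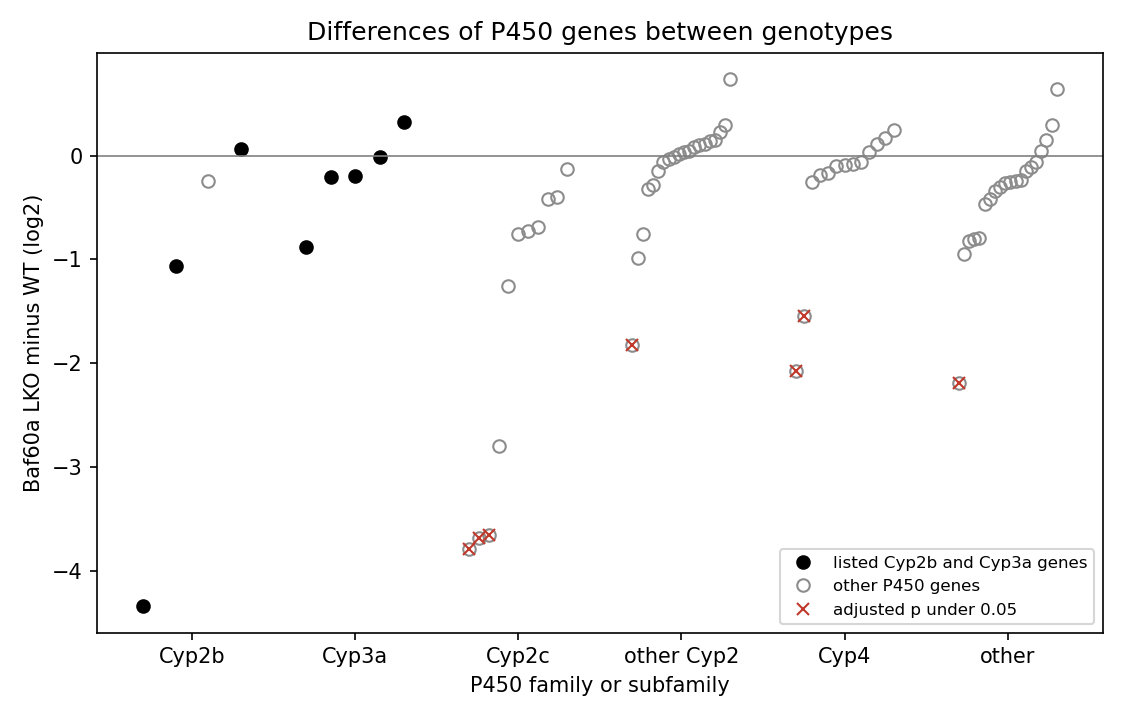
Difference between genotypes (Baf60a LKO minus WT, log2) of every measured P450 gene, by family or subfamily, with the listed Cyp2b and Cyp3a genes as black points, other P450 genes as open circles and crosses on genes with adjusted p under 0.05 by limma. Cyp2b9 at -4.34 lies below the Cyp2c genes that passed and carries no cross. The median is -0.76 over 11 Cyp2c genes, the value of Cyp2c55, and -0.20 over 5 Cyp3a genes, the value of Cyp3a44, at background.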

How the data were processed

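Liver RNA of 2 Baf60a LKO and 2 WT pools was measured on 4 arrays, and the labelled genotype set the group. The authors deposited log2 values (judged by their size), 1 for each probe set in each array. Per the submitters' processing notes they used RMA, affy and limma, with no versions. RMA includes quantile normalization and compresses differences at low levels. Arrays have no read depth, and their number limits the precision.

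Of 45101 probe sets, 64 controls were left out. Probe sets were named by the platform annotation (1 symbol for 34945, several for 932), with symbols updated through RefSeq for GRCm38.p6 by Entrez number (34741 matched). Genotypes were tested by lmFit and eBayes of limma 3.58.1 (R 4.3.3), 2-sided with Benjamini-Hochberg adjustment and no block, over all probe sets for the members and over genes, each by its brightest probe set, for the lists. The probe set fit had 2 residual and 3.74 prior degrees of freedom. An exact permutation of 2 arrays against 2 cannot go below p = 0.333. Replicates are pools, so p-values measure the spread between pools. The fit was also run on simulated data for Baf60a LKO against WT over 45037 probe sets. It recovered 13.4% of 67 changed by 1 on the log2 scale, 94% of 67 changed by 2 and 100% of 66 changed by 4. It called 147 probe sets, of which 9 were unchanged. Each simulated probe set had the same spread in both genotypes, drawn from the limma fit. These shares therefore do not apply to a probe set with pools as far apart as those of Cyp2b9.

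The members and gene lists were chosen with earlier results of these data known. The named genes are the members, the 3 genes most alike to any member that spans 2 or more, all list members past the threshold and up to 4 others in list order (for P450 genes, by size), and Smarcd1. Promoters came from RefSeq for GRCm38.p6 and were aligned globally with Biopython 1.88, and plots were made in Python 3.11.15 with matplotlib 3.10.9. Alternatives were 3 normalizations, the brighter 50% of features, a replicate block, a robust eBayes with a trend, a fit over genes, averaged probe sets, no _x_at or _s_at probe sets, and leaving out each array.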

Additional observations from a re-analysis of the deposited data

How the results depend on the processing

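Each member probe set kept its side of the threshold in the alternatives it was part of, except Cyp2b9, which passed with array medians subtracted and made the count of member probe sets past the threshold 1 there, against 0. The brighter 50% held 4 of the 10 probe sets, and the fits over genes held 1 probe set or mean per gene. Signs held except for those near 0: Cyp3a25 stood at 0.023 with array medians subtracted and at -0.10 to 0.085 with 1 array left out (0.00061 when WT replicate 2 was dropped), and Cyp2b10 on 1451787_at at -0.25 to 0.38 with 1 array left out (-0.09 when Baf60a LKO replicate 1 was dropped) and at -0.58 with its probe sets averaged. The cause was not tested. Probe sets past the threshold, 84, numbered 139 after quantile normalization, 162 after cyclic loess, 146 with array medians subtracted, 173 with a trended and robust eBayes, and 0 with any 1 array left out. Genes past it, 88, numbered 142 after cyclic loess, 154 with array medians subtracted, 216 with a trended and robust eBayes, and 0 to 17 with 1 array left out. Of the 144 list and P450 genes 12 passed, 23 with a trended and robust eBayes and 0 to 8 with 1 array left out. A lone pool is there assumed to vary like the other group, with fewer degrees of freedom.

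The replicate numbers are shared between genotypes, but the labels do not say that they mark a common batch. Deviations of same-numbered pools correlated at 0.15 over probe sets. With the replicate block, 4 probe sets, 19 genes and 6 list genes passed, and Cyp2b9 had adjusted p = 0.524 by limma. Cyp3a16 and Cyp3a44 lay at or under the 95th percentile of the control probe sets on all 4 arrays, and a change below that level was not detectable.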
